A study of Mus musculus with 36 samples.

Results

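Bone marrow-derived macrophages (BMDMs) labelled Bmal1-KO were compared with wild-type (WT) BMDMs after both had been stimulated with LPS. The comparison holds 9 of the 36 libraries of the series, chosen by their labels alone, 6 labelled Bmal1-KO (genotype LysM-Cre;Bmal1 flox/flox) and 3 labelled WT (Bmal1 flox/flox). All 9 came from female C57BL/6 mice of 13 to 17 weeks, and both genotypes carry the floxed alleles, so that the groups differ by the Cre transgene. Bone marrow was grown with MCSF and 20% serum for 7 days and treated for 6 h with 100 nM LPS in DMSO, and the other 27 libraries of the series received vehicle, CCM or LPS with CCM. The WT mice were littermates without Cre, so that Cre itself and the loss of Bmal1 cannot be told apart, and Cre under the LysM promoter acts in the myeloid lineage.

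BMAL1, encoded by Arntl, pairs with CLOCK on E-box sequences and drives the period, cryptochrome and REV-ERB genes. The PER and CRY proteins then repress the BMAL1-CLOCK pair, and the REV-ERB receptors repress Arntl, which closes the loops of the circadian clock. In macrophages the clock is known to set the size of inflammatory responses over the day, and LPS, from the outer membrane of Gram-negative bacteria, sets off such a response through TLR4. LysM is the name of the lysozyme promoter of Lyz2, into which Cre was placed in the LysM-Cre line.

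With all 9 libraries no gene passed the test across all genes, and clock transcripts and the 2 lysozyme genes were among those that set most KO libraries apart from WT. Per2 was higher and Nr1d2 lower in every KO library than in every WT library, and Cry1, Cry2 and Lyz1 were higher and Lyz2 lower in 4 or more of the 6 KO libraries. For Cry1, Cry2, Lyz1 and Lyz2 the groups overlapped, and the share of all genes that meet this looser rule was not computed. In the fit of the 9 libraries 0 of 13794 genes (0% of those tested) had an adjusted p of at most 0.05 by edgeR's quasi-likelihood test, and the smallest adjusted p was 0.393. An unadjusted p under 0.05 was found for 105 genes (0.761%), 51 higher (0.37%) and 54 lower (0.391%) in KO. By DESeq2 1 gene was called, and 230 had an unadjusted p under 0.05. All KO libraries lay above all WT libraries for 86 genes (0.623%) and below them for 80 (0.58%).

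Libraries held 15670327 to 28137892 counted read pairs, and 2 of the 6 KO libraries stood apart. KO replicate 6 differed from the WT mean by 0.857 on the log2 scale on average over genes, against 0.182 to 0.23 for the other KO libraries. It had 0.449% of its counts on mitochondrial genes, against 0.948 to 1.02% in the other KO libraries. Neutrophil markers summed to 1085 CPM in it, against 480 to 520 CPM in WT and 398 to 671 CPM in the other KO libraries. Mmp8, 1 of them, was not raised (23.7 CPM, and 24.1 to 27.1 CPM in WT). Osteoclast markers summed to 902 CPM in it, against 463 to 526 CPM in WT and 412 to 510 CPM in the other KO libraries. T cell markers summed to 8.24 CPM, against 3.33 to 4.35 and 3.08 to 3.90 CPM. The part of these cells in the results was not tested. Of the 12 neutrophil markers, Ly6g and Retnlg were under 1 CPM in all 9 libraries. Fibroblast markers summed to 574 to 817 CPM in WT and 547 to 1814 CPM in KO, and B cell markers to 24.7 to 162 and 52.1 to 163 CPM. T cell, erythroid, mast cell, dendritic and osteoclast markers had no unadjusted p under 0.05 in the edgeR fit with all 9 libraries, nor did the markers above. Macrophage markers summed to 13151 to 13576 CPM in WT and 13184 to 14399 CPM in KO, with all 17 genes tested. The library labelled KO replicate 2 had Bmal1, Cry1, Cry2, Lyz1 and Lyz2 levels within the WT range, and it is therefore named by its label throughout. KO replicate 4 also had a Bmal1 level within the WT range, but its Cry1, Cry2, Lyz1 and Lyz2 levels lay outside it. The biological coefficient of variation common to all genes was 0.254 with the 9 libraries, 0.103 without KO replicate 6 and 0.1 without KO replicates 2 and 6. The main results are given with all 9 libraries and without these 2. The label of KO replicate 2 was doubted from Bmal1, clock and lysozyme values. Without it, p-values of clock and lysozyme genes and their separation from WT are not independent of that choice.

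The Bmal1 transcript checks the labels. Arntl (ENSMUSG00000055116, chromosome 7, 113207465 to 113314126 on mm10, overlapping Gm45355) had 8.86, 6.95 and 8.08 CPM (counts scaled to library size, with TMM factors over the 9 libraries) in WT replicates 1 to 3. In KO it had 1.86 CPM at the lowest, in replicate 6, a median of 6.27 CPM and 7.75 CPM at the highest, in the library labelled KO replicate 2. The groups overlapped, through replicates 2 and 4 of KO. The mean was 5.81 ± 2.11 CPM in KO (SD, n = 6) and 7.97 ± 0.961 CPM in WT (n = 3), a log2 difference of -0.45 (95% interval -1.19 to 0.30, edgeR adjusted p = 0.986). The two-sided exact permutation test over the 84 orders of the libraries gave p = 0.0714, where 0.0238 is the smallest p it can give. Without KO replicate 6 the log2 difference was -0.27 (standard error 0.139), and without KO replicates 2 and 6 it was -0.33 (-0.64 to -0.02, edgeR adjusted p = 0.998). The counts are of the whole gene and include exons that the deletion leaves in place, so the size of the deletion cannot be read from them.

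The partners of BMAL1 did not pass the test. Clock, the usual partner, had 35.2 ± 2.84 CPM in WT and 33.7 ± 8.82 CPM in KO, where replicate 6 had 16.3 CPM and the other 5 libraries 33.8 to 40.2 CPM. Npas2, which can stand in for CLOCK, was low in both groups, with 0.453 to 1.03 CPM in WT and 0.191 to 0.741 CPM in KO. Arntl2, a paralog of Arntl, had 3 to 9 reads per library and did not pass the filter on low counts. Of the 4 activator genes 3 were tested, with a median log2 difference of -0.44, against 0.00 over all genes tested, and of -0.27 without KO replicate 6.

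**Figure D1:**
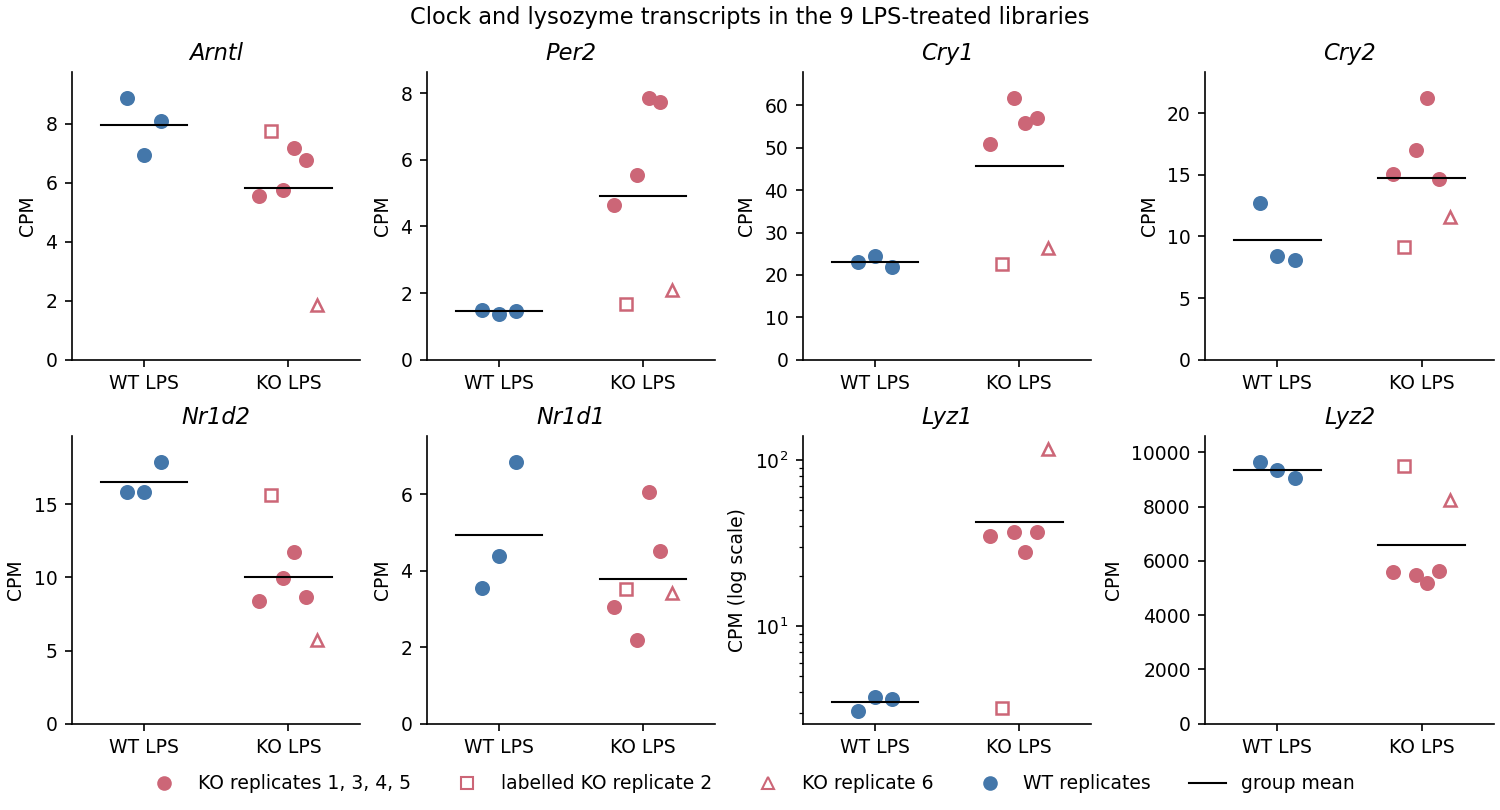
CPM of 6 clock genes and the 2 lysozyme genes in each LPS-treated library (WT blue, n = 3, KO red, n = 6, open square the library labelled KO replicate 2, open triangle KO replicate 6, line the group mean, log axis for Lyz1 only). For Cry1 the KO replicates other than 2 and 6 lie at 50.8 to 61.7 CPM and WT at 21.9 to 24.4 CPM, with KO replicates 2 and 6 at 22.7 and 26.4 CPM.

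E-boxes are the sequences that BMAL1 and CLOCK bind, and the promoters of the clock genes with the clearest differences are shown for these letters. They are RefSeq windows on GRCm38.p6, the build mm10 is made from, and hold the 250 bases before the annotated start, 5′ to 3′. Capitals mark CACGTG or CACGTT, searched on both strands, so that CACGTT on the other strand reads AACGTG. The 2 motifs do not overlap each other here. Of 4 genes looked up, 3 matched the table, and Per2 is named only.
Cry1 promoter, chr10:85185055-85185304, minus strand: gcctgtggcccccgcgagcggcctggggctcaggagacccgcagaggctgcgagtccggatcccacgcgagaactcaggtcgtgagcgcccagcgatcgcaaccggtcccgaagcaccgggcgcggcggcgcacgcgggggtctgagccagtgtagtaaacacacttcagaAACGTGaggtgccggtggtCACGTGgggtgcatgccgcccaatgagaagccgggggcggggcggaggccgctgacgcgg
Cry2 promoter, chr2:92434070-92434319, minus strand: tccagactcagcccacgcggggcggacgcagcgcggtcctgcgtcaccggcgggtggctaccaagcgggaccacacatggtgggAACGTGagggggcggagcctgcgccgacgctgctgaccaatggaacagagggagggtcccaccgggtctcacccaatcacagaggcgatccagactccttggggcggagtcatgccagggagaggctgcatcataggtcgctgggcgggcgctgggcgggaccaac
Nr1d2 promoter, chr14:18239107-18239356, minus strand: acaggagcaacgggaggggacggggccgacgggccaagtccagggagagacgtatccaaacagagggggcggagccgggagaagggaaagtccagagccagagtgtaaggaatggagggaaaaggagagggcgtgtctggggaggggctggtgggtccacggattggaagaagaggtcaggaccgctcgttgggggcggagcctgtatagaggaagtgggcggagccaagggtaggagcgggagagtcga
Cry1 held 1 CACGTG and 1 CACGTT, Cry2 held 1 CACGTT, and neither set of letters is in this window of Nr1d2. CACGTG is in 6.02% and CACGTT in 3.85% of the 32851 promoter windows of the same length.

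Among the repressors, Per2 showed the largest difference. Per2 (ENSMUSG00000055866, chromosome 1, 91415982 to 91459324, no other gene overlapping) had 1.49, 1.38 and 1.46 CPM in WT and, in KO, 1.68 CPM at the lowest, a median of 5.09 CPM and 7.85 CPM at the highest. All 6 KO libraries lay above the 3 WT libraries, although the library labelled KO replicate 2, at 1.68 CPM, and KO replicate 6, at 2.08 CPM, lay close to them. The log2 difference was 1.77 (95% interval 0.64 to 2.90, unadjusted p = 0.00593 in the edgeR fit, adjusted p = 0.986). Without KO replicates 2 and 6 it was 2.15 (1.64 to 2.66, edgeR adjusted p = 0.00869). WT libraries held 29 to 42 reads of Per2 and KO libraries 28 to 158.

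Cry1 (ENSMUSG00000020038, chromosome 10, 85131700 to 85185064), a cryptochrome whose promoter is shown above with both motifs, had 22.9, 24.4 and 21.9 CPM in WT. In KO it had 22.7 CPM at the lowest, a median of 53.3 CPM and 61.7 CPM at the highest. The library labelled KO replicate 2 lay within the WT range and KO replicate 6, at 26.4 CPM, just above it, while the other 4 were over 50 CPM. The log2 difference was 0.99 (95% interval 0.27 to 1.71, unadjusted p = 0.0123 in the edgeR fit, adjusted p = 0.986), and 1.28 without KO replicates 2 and 6 (1.12 to 1.45, edgeR adjusted p = 5.81e-05).

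Cry2 (ENSMUSG00000068742, chromosome 2, 92403646 to 92434043), the second cryptochrome, had 12.7, 8.41 and 8.12 CPM in WT and 9.13 to 21.2 CPM in KO, with a median of 14.9 CPM. Both KO replicates 2 and 6 lay within the WT range, and the other 4 were above it. Its log2 difference was 0.61 with all 9 libraries (unadjusted p = 0.0441 in the edgeR fit, adjusted p = 0.986) and 0.81 without those 2 (edgeR adjusted p = 0.998). The gene overlaps D930015M05Rik, so part of its count is uncertain.

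The other 5 repressors had log2 differences of -0.27 (Per3) to 0.32 (Ciart). Per1, which like Per2 is a period gene, had 16.8 ± 1.88 CPM in WT and 16.9 ± 2.46 CPM in KO, a log2 difference of 0.01 (95% interval -0.32 to 0.34). Bhlhe40 and Bhlhe41, which compete for E-boxes, had log2 differences of 0.09 and -0.05. Of the 8 repressors, 3 had an unadjusted p under 0.05, all higher in KO, beside 0.37% of all genes, and their median was 0.20. Without KO replicate 6 the count was also 3, beside 1.15% of all genes higher and 1.23% lower in KO, and the median was 0.11.

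**Figure D2:**
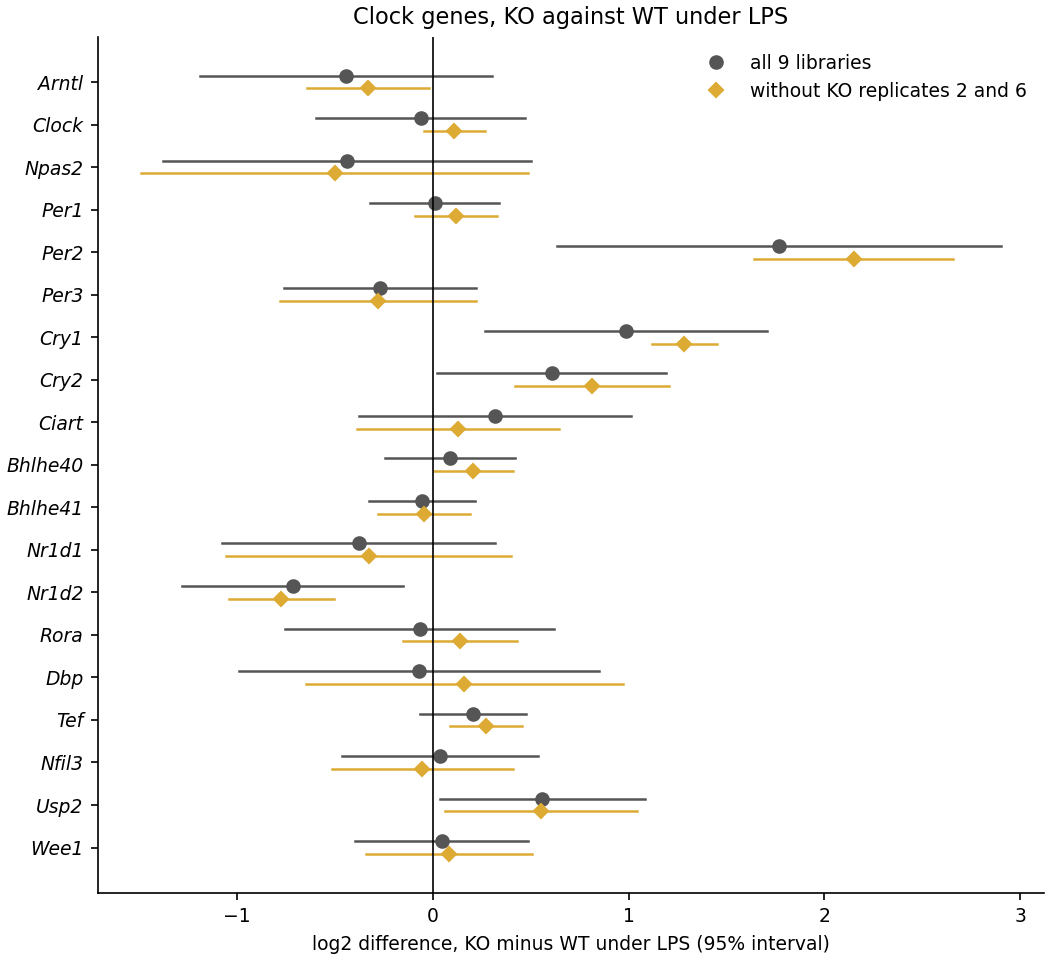
Log2 difference between KO and WT under LPS for the 19 clock genes tested, with 95% intervals from the edgeR fit (grey, all 9 libraries, yellow, without KO replicates 2 and 6). The intervals of Per2, Cry1, Cry2, Nr1d2 and Usp2 leave out 0 in both fits, and Per2 is farthest from 0 at 1.77 and 2.15.

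The REV-ERB and ROR receptors repress or activate Arntl. Nr1d2 (REV-ERBβ, ENSMUSG00000021775, chromosome 14, 18204054 to 18239127, no other gene overlapping) had 15.8, 15.8 and 17.9 CPM in WT. In KO it had 5.72 CPM at the lowest, in replicate 6, a median of 9.30 CPM and 15.7 CPM at the highest, in the library labelled KO replicate 2. Every KO library lay below every WT library, the library labelled KO replicate 2 only just. The log2 difference was -0.72 (95% interval -1.28 to -0.15, unadjusted p = 0.0178 in the edgeR fit, adjusted p = 0.986). Without KO replicates 2 and 6 it was -0.78 (-1.04 to -0.51, edgeR adjusted p = 0.162).

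Nr1d1 (REV-ERBα), the close relative of Nr1d2, had 3.56, 4.37 and 6.83 CPM in WT and 2.18 to 6.06 CPM in KO. The groups overlapped widely, the log2 difference was -0.38 (95% interval -1.08 to 0.32), and the gene overlaps Thra on its locus. Rora had 6.65 to 8.45 CPM in WT and 7.27 to 9.24 CPM in KO replicates 1 to 5, with 2.75 CPM in replicate 6.

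Among the clock output genes, Usp2, a deubiquitinase, had an unadjusted p of 0.0389 in the edgeR fit with a log2 difference of 0.56 (adjusted p = 0.986). It had 1.64 to 2.27 CPM in WT and 2.12 to 3.56 CPM in KO, and the groups overlapped. Tef, a PAR bZIP factor, had 13.1 ± 0.675 CPM in WT and 15.1 ± 1.53 CPM in KO (log2 difference 0.21, and 0.27 without KO replicates 2 and 6, edgeR adjusted p = 0.998), and Dbp, of the same family, had 0.446 to 1.57 CPM over the 9 libraries. Nfil3 and Wee1 had log2 differences of 0.04 and 0.05, and Hlf was not tested. Of the 5 clock regulators tested (genes that act on the PER and CRY proteins), 0 had an unadjusted p under 0.05 in the edgeR fit or without KO replicate 6, and their log2 differences were -0.28 to 0.01.

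Lysozymes break down bacterial cell walls, and the Cre allele lies in Lyz2. Lyz2 (ENSMUSG00000069516, chromosome 10, 117277331 to 117282321), the macrophage lysozyme, had 9628, 9346 and 9049 CPM in WT. In KO it had 5197 CPM at the lowest, a median of 5602 CPM and 9484 CPM at the highest, in the library labelled KO replicate 2, with 8247 CPM in KO replicate 6. The other 4 KO libraries lay between 5197 and 5627 CPM, below all WT libraries. The log2 difference was -0.50 (95% interval -0.95 to -0.05, edgeR adjusted p = 0.986), and -0.77 without KO replicates 2 and 6 (-0.90 to -0.65, edgeR adjusted p = 0.000262).

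Lyz1 (ENSMUSG00000069515, chromosome 10, 117287797 to 117292868), the neighbouring paralog best known from Paneth cells, had 3.09, 3.74 and 3.62 CPM in WT. In KO it had 3.21 CPM at the lowest, in the library labelled KO replicate 2, a median of 35.8 CPM and 117 CPM at the highest, in replicate 6. Only the library labelled KO replicate 2 lay within the WT range among the 6 KO libraries. The log2 difference was 3.61 (95% interval 1.62 to 5.59, edgeR adjusted p = 0.986), and 3.28 without KO replicates 2 and 6 (3.0 to 3.55, edgeR adjusted p = 1.63e-06). The 2 genes are similar in sequence, so reads can be shared between them and both values are uncertain to that extent. The other 76 genes tested within 10 Mb of Lyz2 had no unadjusted p under 0.05 in the edgeR fit with all 9 libraries.

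The library labelled KO replicate 2 lay nearer to the WT mean than to the mean of KO replicates 1, 3, 4 and 5 in all 4 treatments for 6 of 8 genes compared, Lyz1, Lyz2, Cry1, Cry2, Per2 and Nr1d2. For Arntl it did so in 3 treatments, all but vehicle, and for Nr1d1 in 1. With vehicle, on CPM scaled over all 36 libraries, Cry1 had 8.14 CPM in the library labelled KO replicate 2, 7.13 to 8.69 CPM in WT and 29.7 to 32.6 CPM in KO replicates 1, 3, 4 and 5. Nr1d2 with vehicle had 53.3 CPM in it, 46.1 to 50.9 CPM in WT and 18.6 to 23.0 CPM in those 4 libraries. In KO replicate 6 with vehicle Cry1 had 17.4 CPM and Nr1d2 8.60 CPM. KO replicates 1, 3, 4 and 5 did not overlap the WT libraries in any of the 4 treatments for Lyz1, Lyz2, Cry1, Per2 and Nr1d2. Under LPS alone they lay above WT for 2.58% of all genes and below for 2.38%, and no share over the 4 treatments was computed. KO replicate 2 was set apart by such genes, so this separation is not independent of that choice. Nor are the treatments independent, since KO libraries of 1 number deviated together with LPS and vehicle (r = 0.245 to 0.762).

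**Figure D3:**
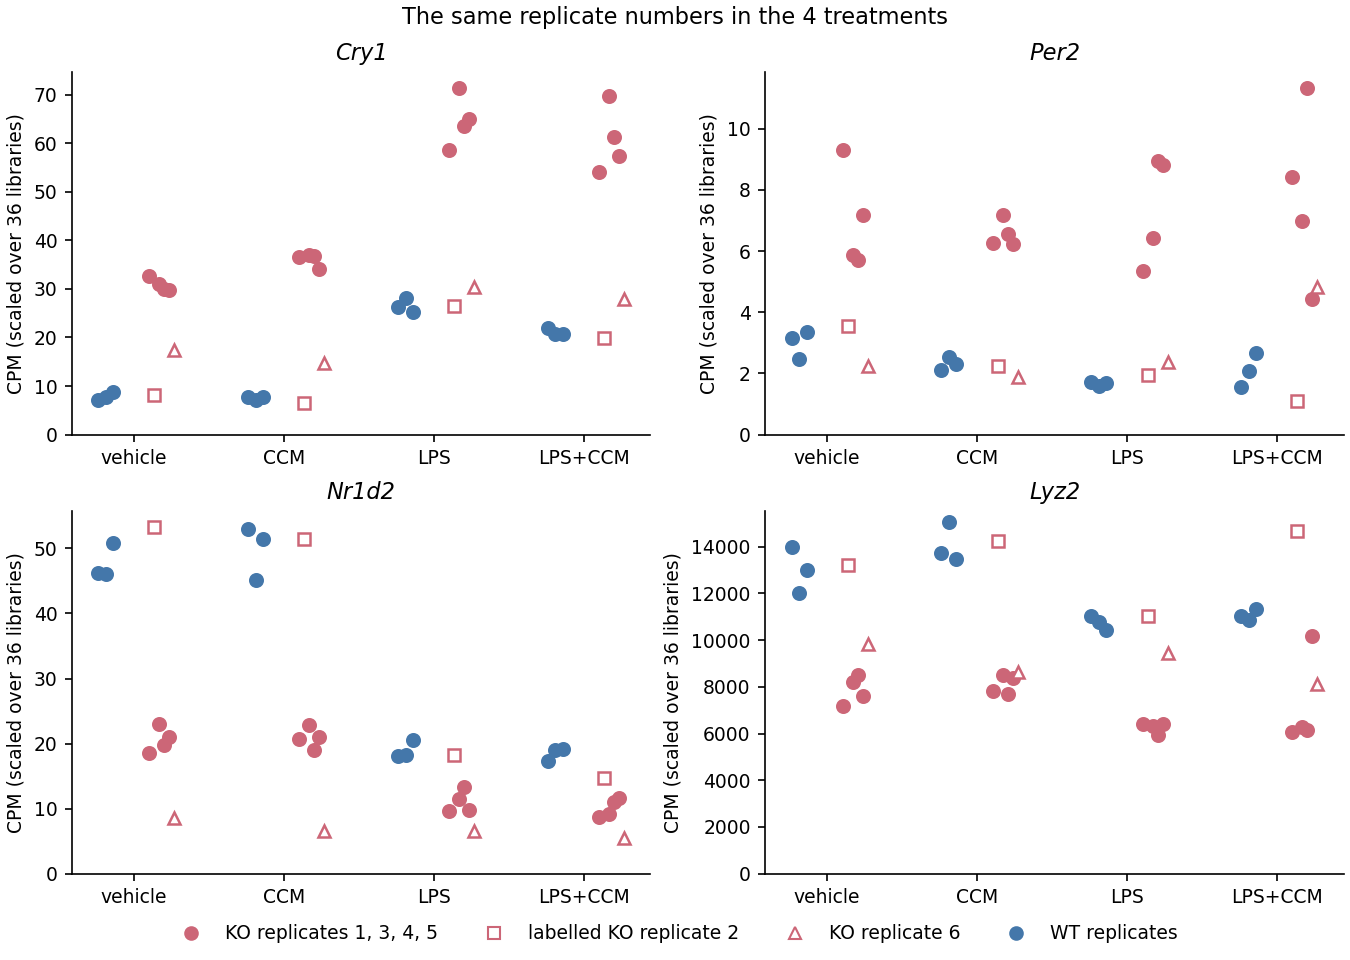
CPM, scaled over the 36 libraries, of Cry1, Per2, Nr1d2 and Lyz2 in each treatment (symbols and colours as in the plot of clock and lysozyme levels). Under LPS, Nr1d2 spans 18.1 to 20.6 CPM in WT and 9.70 to 13.4 CPM in KO replicates 1, 3, 4 and 5, against 46.1 to 50.9 CPM and 18.6 to 23.0 CPM with vehicle.

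Whether the genotype difference itself changed with LPS was tested as the interaction of genotype and LPS over the 18 LPS and vehicle libraries. Of 15093 genes 0 (0%) were called by edgeR, with DESeq2 also at 0, and 112 (0.742%) had an unadjusted p under 0.05 in the edgeR fit. The interaction was -0.67 for Cry1 (95% interval -1.75 to 0.40), 0.85 for Per2 (-0.50 to 2.19) and 0.27 for Nr1d2 (-0.85 to 1.39), on the log2 scale. For Lyz1 and Lyz2 it was 0.06 (-2.32 to 2.44) and 0.02 (-0.61 to 0.65). With the replicate number within each genotype as a block, which pairs the LPS and vehicle libraries of 1 number, the intervals were narrower and still no gene was called. The interaction was then -0.63 for Cry1 (-0.97 to -0.30), 0.79 for Per2 (0.07 to 1.52) and 0.36 for Nr1d2 (-0.03 to 0.74), each with an edgeR adjusted p of 1, and -0.03 for Lyz1 (-0.44 to 0.38). Without KO replicates 2 and 6 it was -0.71 for Cry1 (-0.95 to -0.46, edgeR adjusted p = 0.267), 0.90 for Per2 (0.25 to 1.56) and 0.41 for Nr1d2 (0.10 to 0.73). No gene was called in that setting either. These intervals are not independent of leaving out KO replicate 2, whose label was doubted from such genes.

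With KO replicates 2 and 6 left out, 5 of 13610 genes (0.0367%) were called by edgeR, Lyz1, Cry1, Per2 and Rps27rt higher and Lyz2 lower in KO, and 488 genes (3.59%) had an unadjusted p under 0.05. Of these, 241 (1.77%) were higher and 247 (1.81%) lower. The 4 remaining KO libraries lay above the WT libraries for 356 genes (2.58%) and below them for 328 (2.38%). The calls of Lyz1, Cry1, Per2 and Lyz2 are not independent of leaving out KO replicate 2, whose label was doubted from such genes. Rps27rt is a retrogene copy of the ribosomal protein gene Rps27 and lies within Osbpl10 on chromosome 9 (114982366 to 114982739). It had 39.8, 29.8 and 27.7 CPM in WT and 63.4 to 101 CPM in KO, with no overlap, a log2 difference of 1.30 with all 9 libraries (95% interval 0.90 to 1.70, edgeR adjusted p = 0.393). DESeq2 called it (adjusted p = 2.17e-07), and over all alternatives its adjusted p was 2.17e-07 to 0.998. Its groups overlapped in the other 3 treatments, and with vehicle, on the scale of 36 libraries, it had 31.8 to 88.3 CPM in WT and 45.7 to 97.9 CPM in KO. Reads of Rps27rt and Rps27 can be shared, so its value is uncertain. Rps27 went the other way in most KO libraries under LPS. On the scale of 36 libraries it had 150 to 170 CPM in WT and 97.6 to 145 CPM in KO replicates 1 to 5, with 530 CPM in KO replicate 6. Whether reads passed from 1 gene to the other was not tested.

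The inflammatory transcripts were described with lists of their genes. Il6 had 462, 492 and 354 CPM in WT and, in KO, 280 CPM at the lowest, a median of 337 CPM and 523 CPM at the highest, in the library labelled KO replicate 2. Its log2 difference was -0.28 (95% interval -0.70 to 0.15). Il1a had 1148, 1351 and 1004 CPM in WT and 747 to 1230 CPM in KO with a median of 935 CPM, and its log2 difference was -0.32 (-0.68 to 0.04). The library labelled KO replicate 2 was the highest of the KO libraries for both genes, and the groups overlapped.

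Il12b, the subunit shared by IL-12 and IL-23, had 329 to 593 CPM in WT and 100 to 577 CPM in KO, a log2 difference of -0.44 (95% interval -1.39 to 0.51). Il23a, the other subunit of IL-23, had 1.71 to 2.63 CPM in WT and 0.736 to 2.47 CPM in KO, a log2 difference of -0.54 (-1.41 to 0.33). Il1b had 3083 to 3977 CPM in WT and 2309 to 4836 CPM in KO, a log2 difference of -0.02 (-0.50 to 0.47).

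Of the 17 cytokines tested, 0 had an unadjusted p under 0.05 in the edgeR fit with all 9 libraries or without KO replicate 6, and the median log2 difference was -0.02 and -0.15. Without KO replicates 2 and 6, 7 were lower and 1 (Il10) higher at an unadjusted p under 0.05, beside 1.81% of all genes lower and 1.77% higher, and the median was -0.21, against 0.00 over all genes. The 7 were Il6, Il1a, Il1b, Il12a, Il23a, Il18 and Edn1, none with an edgeR adjusted p under 0.998. Edn1 encodes endothelin-1, a peptide that is in this list but is not a cytokine in the strict sense. The setting without KO replicates 2 and 6 was chosen after seeing the data. In the library labelled KO replicate 2 the median cytokine was 0.16 above the WT mean on the log2 scale, against -0.416 to -0.185 in KO replicates 1, 3, 4 and 5, and 0.09 in KO replicate 6. The WT libraries ranged from -0.13 to 0.11 against the mean of the other 2. In the fit without KO replicates 2 and 6, 3 of 10 neutrophil markers (Ngp, Ltf and Mmp8) were also higher at an unadjusted p under 0.05, with a median of 0.27. Of 6 fibroblast markers (median 0.61), Sparc was higher, of 5 dendritic markers (median -0.11) Itgax was lower and Ccr7 higher, and of 6 osteoclast markers (median -0.18) Dcstamp was lower at that level. The part of these cells in the cytokine values was not tested.

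**Figure D4:**
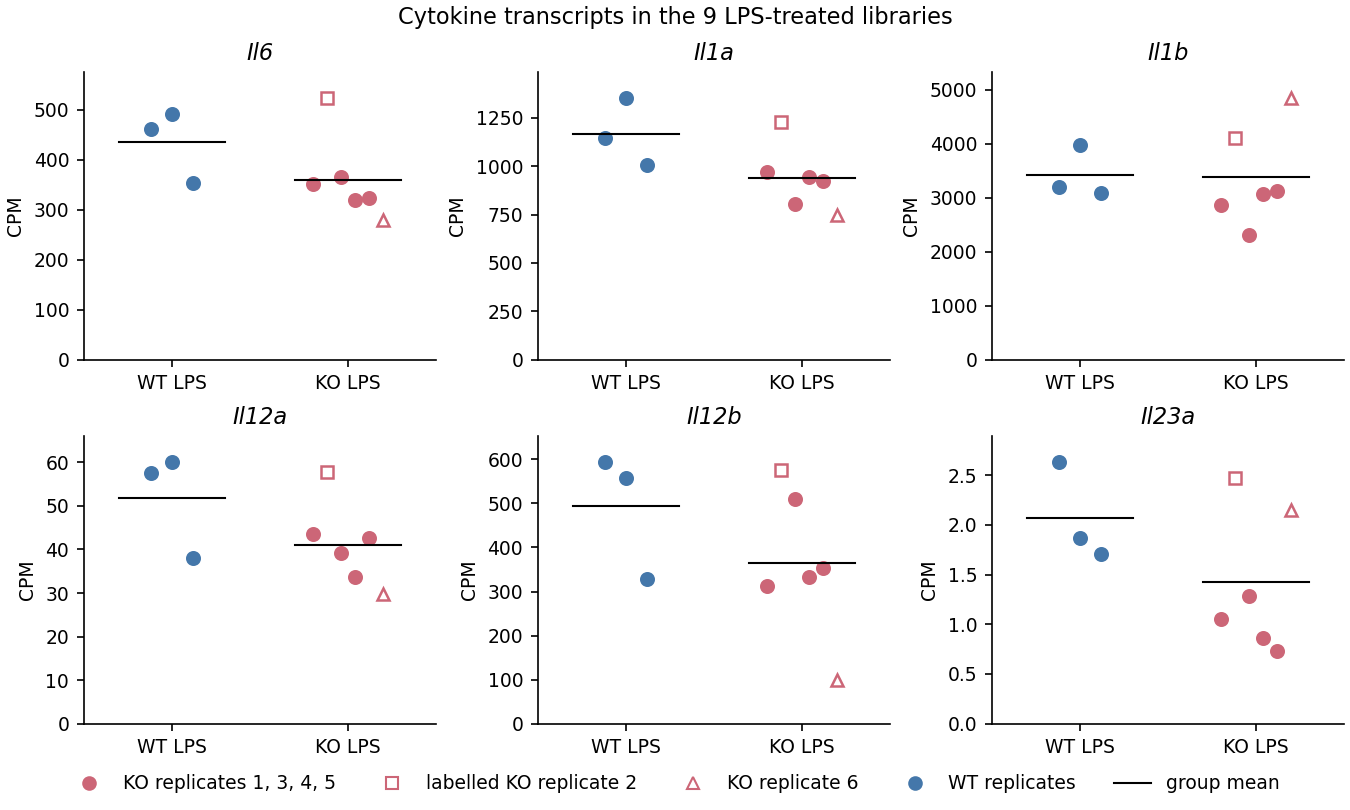
CPM of 6 cytokine genes in each LPS-treated library (symbols as in the plot of clock and lysozyme levels). The groups overlap for every gene shown, and for Il6 the library labelled KO replicate 2 is the highest of the 9 at 523 CPM.

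The other response lists had medians near 0. The 17 chemokines had a median log2 difference of 0.07, which was -0.04 without KO replicate 6 and -0.08 without KO replicates 2 and 6. Ccl5 had 6997 CPM in KO replicate 6, 3203 to 3960 CPM in the other KO libraries and 3314 to 3665 CPM in WT. Inflammatory enzymes and feedback genes had a median of -0.07 over 15 genes, with Ptges, a prostaglandin E synthase, at 0.16 (95% interval -0.04 to 0.37) and Nos2 at -0.18. The 28 antiviral genes had a median of -0.07, with Oas2 at -0.19 and Isg15 at 0.28, where replicate 6 had 2756 CPM and the other 8 libraries 1136 to 1309 CPM. None of the genes of these 3 lists had an unadjusted p under 0.05 in the edgeR fit with all 9 libraries. Without KO replicate 6 Ptges did (higher, 0.18), and without KO replicates 2 and 6 Ptges (0.18) and Ccl12 (lower, -0.25) did, each with an edgeR adjusted p over 0.9. Over all genes, 1.15% were higher and 1.23% lower at that level without KO replicate 6. Without KO replicates 2 and 6 these shares were 1.77% and 1.81%. The medians without KO replicates 2 and 6 were -0.04 for the enzymes and -0.05 for the antiviral genes.

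NRF2 pathway genes (15 genes, median 0.01), stress response genes (13 genes, -0.02), cell cycle genes (22 genes, 0.05) and MHC class II genes (9 genes, 0.18) also had no member with an unadjusted p under 0.05 in the edgeR fit, with all 9 libraries or without KO replicates 2 and 6. The NRF2 list is named NRF2 targets in the plot of lists, but it also holds Nfe2l2, which encodes NRF2, and Keap1. The MHC class II median was 0.01 without KO replicate 6, in which it stood 0.93 above WT. Among 18 glycolysis genes (median 0.11), 1 was lower at that level with all 9 libraries, beside 0.391% of all genes. This was Gapdh, with a log2 difference of -1.97 (edgeR adjusted p = 0.986). It had 11.7, 51.0 and 66.5 CPM in WT and 8.96 to 16.7 CPM in KO, with WT replicate 1 inside the KO range, and its many pseudogene copies make the value uncertain.

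The 21 genes of the phagocytosis panel, the study's own choice of BMAL1 targets, may have been chosen with these samples in view and are then no independent evidence. They had a median of -0.02. Mertk, a receptor for the uptake of dying cells, had 101 to 108 CPM in WT and 39.5 to 98.9 CPM in KO with no overlap, a log2 difference of -0.32 (95% interval -0.86 to 0.23). Without KO replicate 6 it was -0.17 (-0.33 to -0.02), and without KO replicates 2 and 6 -0.19 (-0.36 to -0.03, edgeR adjusted p = 0.998). It was 1 of the 21 genes whose KO libraries all lay below WT, beside 0.58% of all genes. Cx3cr1, the fractalkine receptor, is not in this panel but among the 17 macrophage markers. These had a median log2 difference of 0.02, and of 0.01 without KO replicates 2 and 6. Only Cx3cr1 among them had an unadjusted p under 0.05 in the edgeR fit without those libraries, beside 1.77% of all genes higher. It had 27.6 to 31.9 CPM in WT and 34.4 to 48.7 CPM in KO replicates 1 to 5, with 23.5 CPM in replicate 6. Its log2 difference was 0.37 (-0.08 to 0.82), and 0.53 without KO replicates 2 and 6 (edgeR adjusted p = 0.373), and its interval overlaps 9 other genes.

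**Figure D5:**
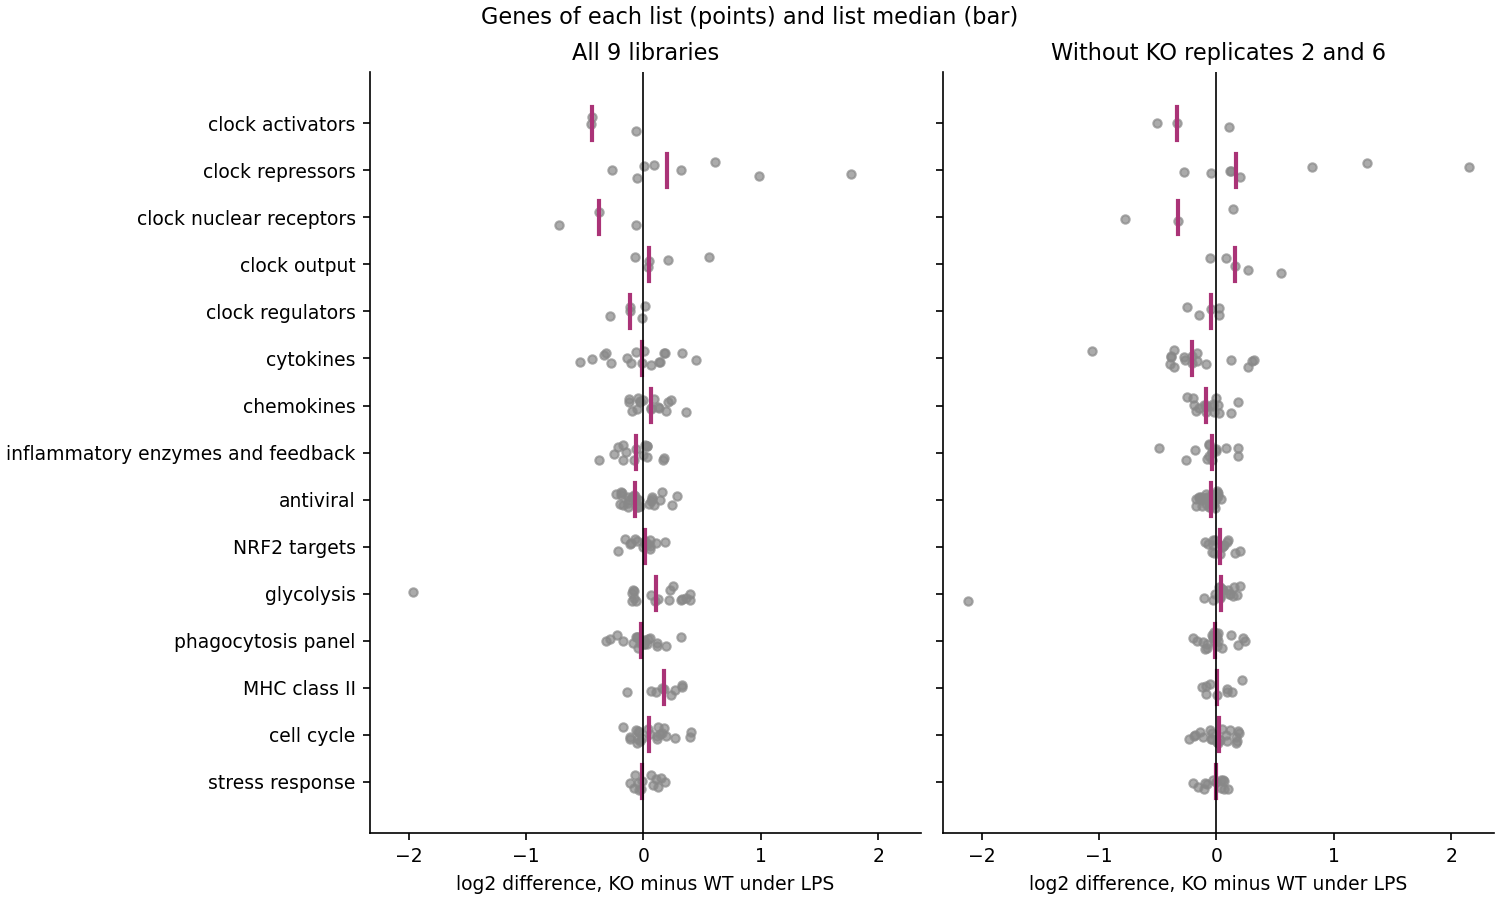
Log2 difference between KO and WT under LPS of each gene tested (points) in 15 lists, with the list median (bar), for all 9 libraries and without KO replicates 2 and 6. Most points lie near 0, and the clock repressors reach 1.77 and 2.15.

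Genes were also sorted by their own response to LPS in libraries that the comparison does not use, LPS with CCM against CCM alone. Of the 13794 genes, 3689 were LPS-raised and 3374 LPS-lowered there (edgeR adjusted p at most 0.05). In KO the LPS-raised genes had a median log2 difference from WT of -0.01 and the LPS-lowered genes one of -0.01, and 47.6% and 47.1% of them were higher in KO, against 50.2% of all genes tested. Without KO replicate 6 the shares were 50% and 51.1%, against 52% of all genes. In single KO libraries the LPS-raised genes had medians of -0.06 to 0.03, and the LPS-lowered genes of -0.13 to 0.04, with replicate 6 at the low end of both. The WT libraries spanned -0.01 to 0.01 and -0.01 to 0.02.

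Within 10 Mb of Arntl, 124 genes were tested and 2 had an unadjusted p under 0.05 in the edgeR fit, Rrp8 and Trim66 (1.61%, beside 0.761% of all genes). Without KO replicates 2 and 6 there were 11 (8.87%, beside 3.59%), Arntl among them. Both genotypes carry the floxed alleles, and the part of this locus in these values was not tested.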

How the data were processed

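RNA-seq of 36 BMDM libraries was used, with 9 in the comparison (KO n = 6, WT n = 3, female mice). Per the labels, the authors trimmed reads with fastp, aligned them to mm10 with HISAT2 2.0.5 and counted them per gene with featureCounts 1.5.0-p3. The deposited values are these raw counts, without normalization, for 54532 genes. The strand setting is not given in the sources used here, so counts of genes that overlap others are uncertain. Overlaps are named for some genes only. Clock, Usp2, Tef, Dbp, Il1a and Ptges, among others, also overlap other genes. All count columns were used.

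Counts were fitted with edgeR 4.0.16 (R 4.3.3) by filterByExpr, TMM, estimateDisp, glmQLFit and glmQLFTest, two-sided, with Benjamini-Hochberg adjustment at 0.05, on the 9 libraries, or on 18 for the interaction. CPM use TMM factors. Log2 values per library use a prior count of 2. The scripts were tested on simulated data. Alternatives were DESeq2 1.42.0, limma 3.58.1 (voom), RLE, no filter, all 36 libraries, robust dispersion, a replicate block and leaving out libraries.

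Labels do not say that replicates came from separate mice, so p-values measure the spread between these samples. The pair of libraries most alike within a group still differed by more than counting noise (chi-square per degree of freedom 4.08). The members, lists and tests were chosen with earlier results of these data known. Named were all clock and lysozyme genes, up to 12 called genes each way (average log2 CPM of at least 1, no overlap) with and without KO replicate 6, the 4 genes of each other list with the smallest p, and up to 6 interaction genes. Leaving out KO replicates 2 and 6 together, and naming Rps27rt, Il1b, Il12b, Nos2, Rhoa and the members with a small p in that fit, were chosen after seeing the data. Some single-gene values are not reported here.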

Additional observations from a re-analysis of the deposited data

Results flagged for a closer look

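The KO LPS values were examined in 79 groups of 6 (genes, the total count and the mitochondrial share). By Dixon's test at 95%, 27 groups held 1 library that stood apart from the others. Chance alone does so in about 1 in 20 independent groups. These groups share the same 6 libraries and some genes were chosen after seeing the data, so the 27 cannot be read against that rate. In 26 of the 27 groups it was KO replicate 6. It was lower than the other 5 for Arntl (1.86 CPM), Clock (16.3), Rora (2.75), Tnfaip3 (293), Gclc (14.5), Mertk (39.5) and Rhoa (328), in CPM. It was higher for Ciart (3.94 CPM), Lyz1 (117), Ccl7 (136), Ccl5 (6997), Isg15 (2756), Prdx1 (9587), Gapdh (16.7), Tpi1 (598), Rhoc (499), Fcer1g (2066), H2-Ab1 (499.5), Cd74 (1663), Birc5 (20.05), Trib3 (13.5), Trem2 (927), Spi1 (1463), Cebpb (1269) and Rps27 (462). Its mitochondrial share was 0.449% of counts. The library labelled KO replicate 2 stood apart for Il6, at 523 CPM against 280 to 365 CPM in the other KO libraries.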

How the results depend on the processing

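The number of genes called between KO and WT under LPS, 0 by edgeR, stayed at 0 with RLE factors, no filter, robust dispersion, all 36 libraries in 1 fit, and without any single KO library. It was 1 by DESeq2, 1 with voom and quality weights and 1 with a replicate block, Rps27rt in each. It was 0 to 1 when single libraries were left out, the 1 being Gapdh, lower, without WT replicate 1. It was 5 without KO replicates 2 and 6, a setting chosen after seeing the data. The interaction stayed at 0 calls in every alternative, the block included. The Bmal1 difference stayed negative and never passed the threshold (-0.54 to -0.18). The medians of LPS-raised and LPS-lowered genes moved by less than the spread between KO libraries (-0.02 to 0.00 and -0.03 to 0.01). Same-numbered KO and WT libraries did not deviate together (r = -0.116 to 0.0414), so the numbers were not taken as pairs outside that block. KO libraries with LPS and vehicle of 1 number had r = 0.245 to 0.762, 5 of 6 correlating best with their own number, and WT 0.0846 to 0.172, with 3 of 3. Depth was not varied, and Per2, with 28 to 158 reads per library, is among the shallower genes.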
